A study of Mus musculus with 36 samples.

Results

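The Hox genes are the homeobox transcription factors of 4 clusters, HoxA to HoxD. The deposited gene table lists 25 of them among its 19025 genes, taken here as every symbol made of Hox, a cluster letter from a to d and a number, with no measured value used in the choice. Their levels were read in all 36 libraries of the series, from mouse brain. Each of 6 region labels (HP, PFc, Nac, STR, SN and VTA) is left unexpanded by the labels; they are read here as the substantia nigra (SN) and ventral tegmental area (VTA) of the midbrain, and as hippocampus (HP), prefrontal cortex (PFc), nucleus accumbens (Nac) and striatum (STR). Each region has 3 libraries of wild-type (WT) mice and 3 of knock-in (KI) mice. WT and KI animals are C57 mice aged 6 to 7 weeks, and KI animals carry a knock-in of a synonymous base change in Maoa, which encodes the enzyme monoamine oxidase A, known for degrading monoamine transmitters. The title of the series states that this change lowers Maoa transcription and translation. No label says whether libraries of a group are from separate animals. A p-value here therefore measures the spread between these libraries only, and that spread may be technical.

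Hox genes lie in their clusters in the order in which they are expressed along the body axis, and genes at the same place in different clusters form a paralog group, given by the number in the symbol. Groups 1 to 4 are known for their nested expression in the segments of the embryonic hindbrain, group 5 and upward for the lower medulla and the spinal cord, and the forebrain and most of the midbrain form without them. Adult neurons of the hindbrain keep part of this expression, so Hox transcripts are a mark of hindbrain tissue. None of the 6 regions is a hindbrain region, while SN and VTA lie in the midbrain, next to it.

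The members are alike at the homeobox, the part of each gene that encodes the DNA-binding domain. It was found for each of the 25 members, as 180 bases of a GENCODE M21 transcript (GRCm38). Over the 19 pairs within a paralog group the homeoboxes were 67.2% to 93.9% identical (median 82.2%), and over the 281 pairs of different groups 46.7% to 88.9% (median 63.9%). The longest identical run between any pair of members was 47 bases, shared for example by Hoxb3 and Hoxd3. Exons of 12 members overlap another annotated gene, in 9 of them one on the opposite strand: Hoxb3os covers 52.9% of the exon bases of Hoxb3 and 27.3% of those of Hoxb2, and Hoxd3 and Hoxd4 share 388 exon bases. Whether the counting used strand is not given in the sources used here, so reads of such a pair cannot be told apart.

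The promoters of members that differ in their pattern below follow, for Hoxa2, Hoxb4 and Hoxc4, whose counts were nearly all in SN, VTA and 1 Nac library, and for Hoxd1, which had counts in every region. Each is the 250 bases before the annotated start, from RefSeq on GRCm38.p6, 5′ to 3′ on the gene's strand. Capitals mark every match, on either strand, to CCAAT (the CCAAT box), to AGGTCA (the half-site of retinoic acid receptors) or to TGATNNAT (the joint site of Pbx and Hox proteins, with N any base). Hoxa2 is at chr6:52164832-52165081 on the minus strand. Hoxb4 is at chr11:96318017-96318266 on the plus strand. Hoxc4 is at chr15:103034145-103034394 on the plus strand. Hoxd1 is at chr2:74762730-74762979 on the plus strand.
Hoxa2: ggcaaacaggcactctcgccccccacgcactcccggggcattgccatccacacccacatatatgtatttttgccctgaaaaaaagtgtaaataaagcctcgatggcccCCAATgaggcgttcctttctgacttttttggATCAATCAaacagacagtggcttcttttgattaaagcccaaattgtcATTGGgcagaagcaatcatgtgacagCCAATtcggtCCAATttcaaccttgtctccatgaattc
Hoxb4: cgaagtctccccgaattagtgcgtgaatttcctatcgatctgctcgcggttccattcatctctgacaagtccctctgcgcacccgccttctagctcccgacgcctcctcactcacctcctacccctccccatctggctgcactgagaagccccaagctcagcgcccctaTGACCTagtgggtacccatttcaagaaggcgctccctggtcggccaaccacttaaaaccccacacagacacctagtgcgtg
Hoxc4: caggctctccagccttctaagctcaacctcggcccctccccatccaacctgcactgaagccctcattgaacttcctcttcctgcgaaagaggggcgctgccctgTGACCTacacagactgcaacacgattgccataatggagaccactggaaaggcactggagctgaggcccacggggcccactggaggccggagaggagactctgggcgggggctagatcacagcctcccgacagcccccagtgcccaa
Hoxd1: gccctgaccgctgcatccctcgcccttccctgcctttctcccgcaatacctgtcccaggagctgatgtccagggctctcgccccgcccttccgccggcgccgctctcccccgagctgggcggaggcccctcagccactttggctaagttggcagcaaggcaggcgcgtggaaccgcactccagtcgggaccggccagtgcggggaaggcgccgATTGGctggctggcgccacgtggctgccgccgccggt

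RefSeq promoters were at hand for 15 of the 25 members. CCAAT was found in 8 of these 15 and in 34.5% of 27025 promoters of the same length, 1 per gene. AGGTCA was found in 5 of 15, Hoxb4, Hoxc4, Hoxd3, Hoxd4 and Hoxd8, against 13.8% of all. TGATNNAT was found in 2 of 15, Hoxa2 and Hoxb8, against 7.91% of all. No matches overlapped within the 4 printed promoters. These matches describe the letters in the window and were not tested as sites.

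The libraries held 15145623 to 18863508 estimated counts each, and every one of the 900 member values was a whole number. Maoa, the targeted gene, ran from 32.4 to 84.6 CPM (the count scaled to the library's total) in the 18 WT libraries, with a median of 48.3 CPM, and from 35.5 to 99.4 CPM in the 18 KI libraries, with a median of 47.2 CPM. By region, all 3 KI libraries were above all 3 WT libraries in HP (35.5 to 47.2 against 32.4 to 34.5 CPM), in STR (60.4 to 69.6 against 43.7 to 49.5 CPM) and in VTA (85.0 to 99.4 against 53.6 to 80.7 CPM). The genotypes overlapped in Nac, in PFc and in SN, where WT had 66.4 to 84.6 CPM and KI 45.3 to 77.0 CPM. In no region was Maoa lower in every KI library, so its level does not check the labels in the direction the title states. Region markers went against the label, wholly or in part, in 8 libraries, a judgement taken from earlier results of these data. WT VTA 3 had Slc6a3, the dopamine transporter, at 0.579 CPM and Drd1, a striatal dopamine receptor, at 136 CPM. KI SN 1 and KI SN 2 had Slc6a3 at 1.19 and 0.776 CPM, against 267 to 1107 CPM in WT SN. WT Nac 2 and KI Nac 1 had Slc6a3 at 192 and 965 CPM, against 0.115 to 1.38 CPM in the other 4 Nac libraries. The remaining ones are KI Nac 2 and KI STR 3, with Drd1 at 2.54 and 9.59 CPM, and KI HP 2, with Drd1 at 203 CPM. They are called doubted libraries from here on. The results on Hox genes against forebrain and between genotypes in SN and VTA are given with and without them, while group means and the gene lists keep them. Since tissue was sequenced in bulk, fewer cells of a type and less RNA per cell cannot be told apart.

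Hox counts were concentrated in SN, VTA and 1 Nac library. The summed level of the 25 genes was 9.72, 11.2 and 42.4 CPM in WT SN 1 to 3 and 39.0, 9.82 and 0.463 CPM in WT VTA 1 to 3. It was 24.7, 2.55 and 14.4 CPM in KI VTA 1 to 3, but 0.0660, 0.179 and 1.22 CPM in KI SN 1 to 3. All 3 KI SN libraries thus lay below all 3 WT SN libraries, while the VTA genotypes overlapped. WT Nac 2 stood at 9.99 CPM, within the range of WT VTA and above WT SN 1, and the other WT Nac libraries at 0.283 and 0.346 CPM. KI Nac 1 to 3 had 1.59, 0.0576 and 0.287 CPM. In the 18 libraries of HP, PFc and STR the sum never passed 0.956 CPM.

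**Figure D1:**
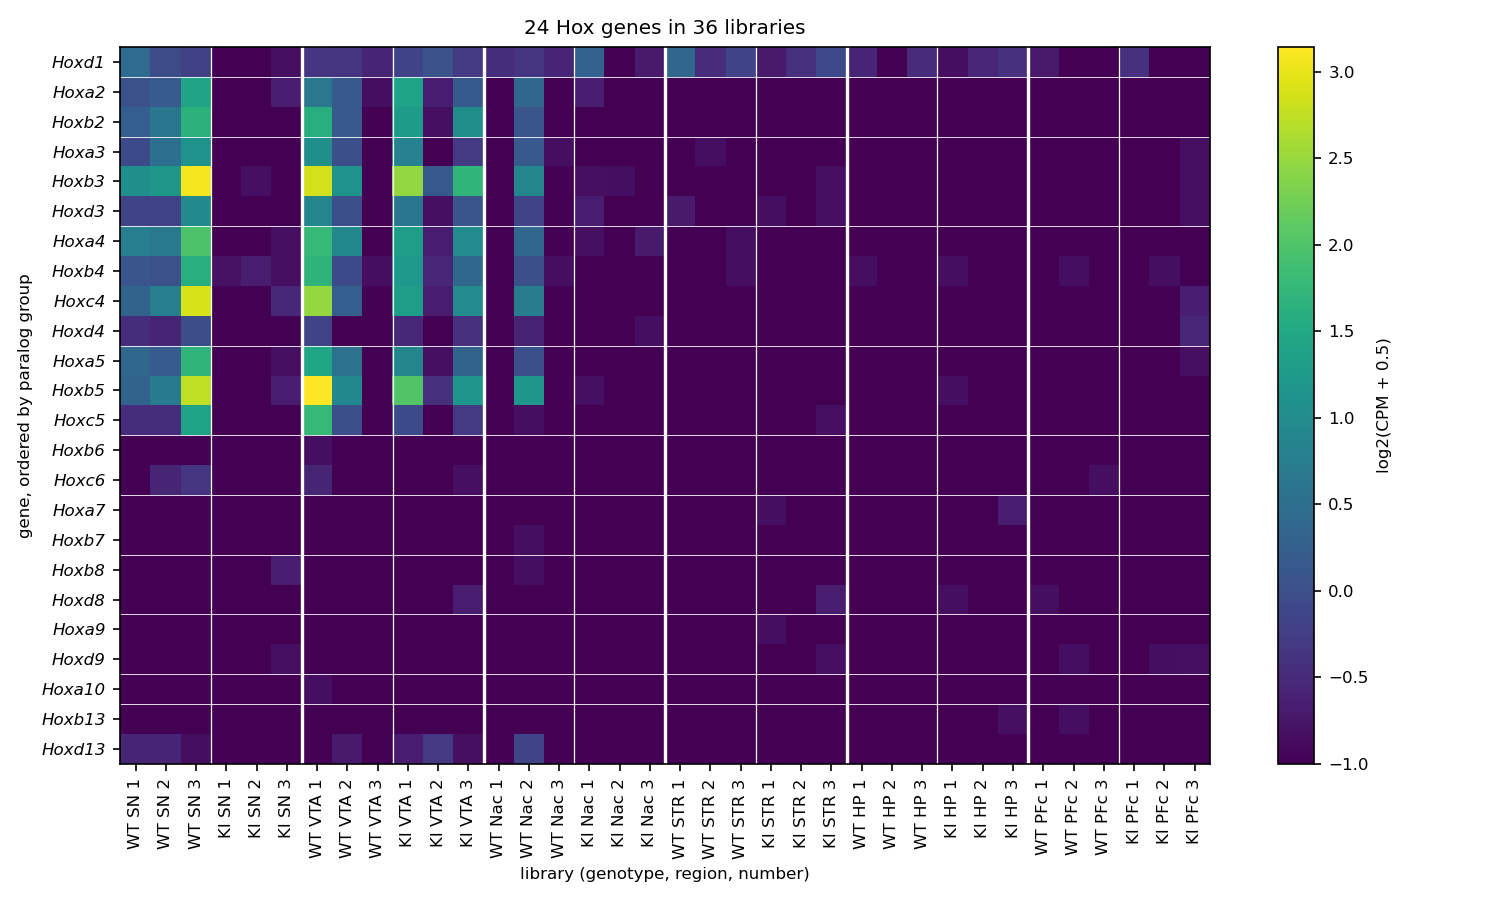
Level of 24 of the 25 Hox genes (rows, ordered by paralog group) in each of the 36 libraries (columns, by region, genotype and number), as log2(CPM + 0.5) on the colour scale. Groups 2 to 5 are seen in WT SN, in VTA apart from WT VTA 3, and in WT Nac 2, while the rows of Hoxd1 and the rows from group 6 upward look different from these.

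In the order of group means the summed level was 21.1 ± 18.5 CPM in WT SN (SD, n = 3 for every group), 16.4 ± 20.1 in WT VTA, 13.9 ± 11.1 in KI VTA, 3.54 ± 5.59 in WT Nac, 0.645 ± 0.827 in KI Nac, 0.577 ± 0.348 in WT STR, 0.494 ± 0.348 in KI STR, 0.487 ± 0.635 in KI SN, 0.325 ± 0.253 in KI PFc, 0.285 ± 0.139 in KI HP, 0.146 ± 0.127 in WT HP and 0.128 ± 0.0639 in WT PFc. No neighbours in this order differed by more than their SDs. The spread inside a group was as large as its mean in WT VTA, where WT VTA 1 had 682 Hox counts and WT VTA 3 had 8. Per length, in the authors' TPM (a level per transcript length, scaled to the library), the order began the same way, with 22.9 ± 21.9 TPM in WT SN, 16.4 ± 20.3 in WT VTA and 12.9 ± 10.2 in KI VTA.

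**Figure D2:**
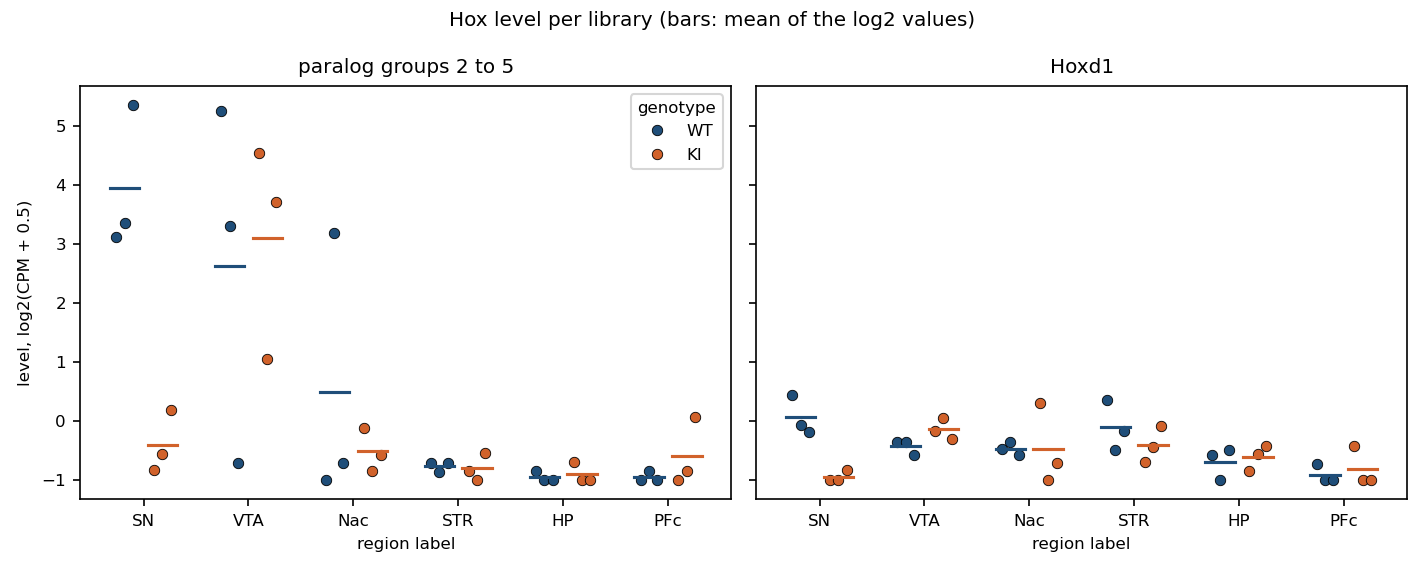
Summed level of the Hox genes of paralog groups 2 to 5 (left) and level of Hoxd1 (right), per library as log2(CPM + 0.5), with WT in blue and KI in orange; points are libraries and short lines are means of the 3 log2 values. For groups 2 to 5 the points of KI SN 1 and KI SN 2 lie among those of HP, PFc and STR. KI SN 3, at 0.641 CPM, lies above them. For Hoxd1 the regions lie closer together.

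Among single members Hoxb3 had the most counts, 515 over the 36 libraries; it is a group 3 gene of the caudal hindbrain. Its level was 1.6, 1.79 and 8.04 CPM in WT SN 1 to 3 and 6.74, 1.69 and 0 CPM in WT VTA 1 to 3. In KI it was 0, 0.0597 and 0 CPM in SN and 5.05, 0.606 and 2.76 CPM in VTA. All 3 WT SN libraries were above all 3 KI SN libraries, and the VTA genotypes overlapped. Of its 7 transcripts in the deposited table, 1 took 75.4% of the counts. Outside SN and VTA, 24 of the counts were in WT Nac 2 and the HP, PFc and STR libraries had 2 in all.

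Hoxb2 and Hoxa2, the group 2 members, are known for segment identity in the front hindbrain. Hoxb2 stood at 0.686, 1.04 and 2.68 CPM in WT SN 1 to 3 and at 2.57, 0.621 and 0 CPM in WT VTA 1 to 3. In KI it had 0 CPM in all 3 SN libraries and 1.94, 0.0606 and 1.57 CPM in VTA 1 to 3. It had no count in HP, PFc or STR. Hoxa2 stood at 0.514, 0.635 and 2.19 CPM in WT SN, at 0, 0 and 0.128 CPM in KI SN, at 1.09, 0.621 and 0.0579 CPM in WT VTA and at 2.14, 0.121 and 0.627 CPM in KI VTA. For both genes WT SN lay wholly above KI SN and the VTA genotypes overlapped.

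Group 4 held 3 of the 8 most abundant members, Hoxc4, Hoxa4 and Hoxb4, known from the lower medulla and neck levels of the spinal cord. Hoxc4 was at 0.743, 1.21 and 6.95 CPM in WT SN 1 to 3 and at 5.14, 0.677 and 0 CPM in WT VTA 1 to 3. In KI it was at 0, 0 and 0.192 CPM in SN and at 2.01, 0.121 and 1.5 CPM in VTA. Hoxc4 thus had its highest levels in WT SN 3 and WT VTA 1, several times above the next library of the same group. Hoxa4 was at 1.20, 1.10 and 3.45 CPM in WT SN, 0, 0 and 0.0641 CPM in KI SN, 2.91, 1.41 and 0 CPM in WT VTA and 2.01, 0.121 and 1.5 CPM in KI VTA. Hoxb4 was at 0.571, 0.519 and 2.57 CPM in WT SN, 0.0660, 0.119 and 0.0641 CPM in KI SN, 2.74, 0.452 and 0.0579 CPM in WT VTA and 1.81, 0.182 and 0.815 CPM in KI VTA. Neither gene had WT SN overlapping KI SN. Hoxb4 was the one member of the 8 with a count in each KI SN library, 4 counts in all.

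Group 5 was represented by Hoxb5 and Hoxa5, genes of the lower medulla and of the spinal cord. Hoxb5 stood at 0.743, 1.15 and 6.24 CPM in WT SN 1 to 3 and at 8.34, 1.41 and 0 CPM in WT VTA 1 to 3. In KI it stood at 0, 0 and 0.128 CPM in SN and at 3.56, 0.242 and 1.76 CPM in VTA. The 8.34 CPM of WT VTA 1 were the highest level of any member in any library. Hoxa5 stood at 0.800, 0.635 and 2.79 CPM in WT SN, 0, 0 and 0.0641 CPM in KI SN, 2.23, 0.960 and 0 CPM in WT VTA and 1.36, 0.0606 and 0.752 CPM in KI VTA. Per length the leading members of WT SN were Hoxc4 at 3.68 ± 4.41 TPM, Hoxb5 at 3.34 ± 3.98, Hoxa4 at 2.96 ± 2.32, Hoxb3 at 2.54 ± 2.69 and Hoxb2 at 2.34 ± 2.10 (authors' TPM, SD, n = 3), whose spreads overlap.

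The other members of groups 3 to 5 were lower. Hoxa3 had 131 counts in all, Hoxc5 121, Hoxd3 114 and Hoxd4 37. Of these, Hoxa3 had 55 counts in WT SN and 0 in KI SN, Hoxc5 47 and 0, Hoxd3 41 and 0, and Hoxd4 16 and 0. In VTA, Hoxc5 had 60 counts in WT and 12 in KI, a ratio of 4.56 (2.43 to 9.32), of which 51 were in WT VTA 1. Without WT VTA 1 the ratio was 1.03 (0.382 to 2.66). That exact 95% interval, like the others given here for ratios of pooled counts, covers counting error only. WT VTA 3 had no count of Hoxc5, so the WT VTA libraries, at 2.91, 0.508 and 0 CPM, overlapped the KI VTA libraries at 0.453, 0 and 0.313 CPM.

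Members from group 6 upward were near 0 throughout, which for groups 6 to 9 is the part of the series known from the trunk. Hoxa9, Hoxa10, Hoxb6 and Hoxb7 had 1 count each in the 36 libraries, Hoxb13 had 2, Hoxa7 and Hoxb8 3, Hoxd9 5, Hoxd8 6 and Hoxc6 13. A count of 0 allows up to 3 counts in a library, 0.159 to 0.198 CPM at these depths. Hoxd13 was the exception with 24 counts: 7 in WT SN, 2 in WT VTA, 8 in KI VTA and 7 in WT Nac 2, and none elsewhere. It is known as the gene of the far end of the HoxD cluster, active in limb tips and the tail end of the body. Its counts lay in the same libraries as those of groups 2 to 5, at levels of at most 0.395 CPM.

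Hoxd1 followed another pattern. It had a count in 28 of the 36 libraries and in every region, more than any other member. Its group levels were 0.567 ± 0.254 CPM in WT SN, 0.465 ± 0.292 in WT STR, 0.416 ± 0.119 in KI VTA, 0.283 ± 0.395 in KI Nac, 0.267 ± 0.165 in KI STR, 0.247 ± 0.0637 in WT VTA and 0.227 ± 0.0545 in WT Nac (SD, n = 3), and 0.0214 to 0.163 CPM in the other groups. WT STR and KI VTA overlapped WT SN. Over HP, PFc and STR Hoxd1 made up 59 of the 100 Hox counts, and the other 24 members shared 41. Pooled over 3 libraries against 9, WT SN had 30 Hoxd1 counts and WT HP, PFc and STR 34, a ratio of 2.72 (1.61 to 4.58), where groups 2 to 5 gave 1057 counts and 7, a ratio of 465 (225 to 1159).

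The make-up of the Hox counts differed between libraries for groups 2 and 5 and less for group 3. In the 8 libraries with at least 50 Hox counts, group 3 took 23.7% to 29.9%, with intervals that overlapped. Group 2 took 9.38% in WT VTA 1 (exact 95% interval 7.30 to 11.8) and 16.5% in KI VTA 1 (13 to 20.7), and these intervals did not overlap. Group 5 took 34.6% of the counts in WT VTA 1 (exact 95% interval 31.0 to 38.3), 26.3% in WT SN 3 (23.3 to 29.6) and 18.2% and 18% in WT SN 1 and 2 (12.7 to 24.9 and 12.9 to 24.2). Groups 1 to 3 together took 35.9% in WT VTA 1 (32.3 to 39.6), 41.2% in WT SN 3 (37.7 to 44.7) and 53.3% in KI VTA 1 (48.1 to 58.4). The libraries with the highest summed level thus had the largest shares of groups 4 and 5, 63.3% in WT VTA 1 and 58.1% in WT SN 3, against 44.8% to 55.2% in the other 6. By cluster, HoxB took 37.1% to 52.5%, HoxA 21.1% to 36.2%, HoxC 9.97% to 22.1% and HoxD 5.28% to 17.1%.

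**Figure D3:**
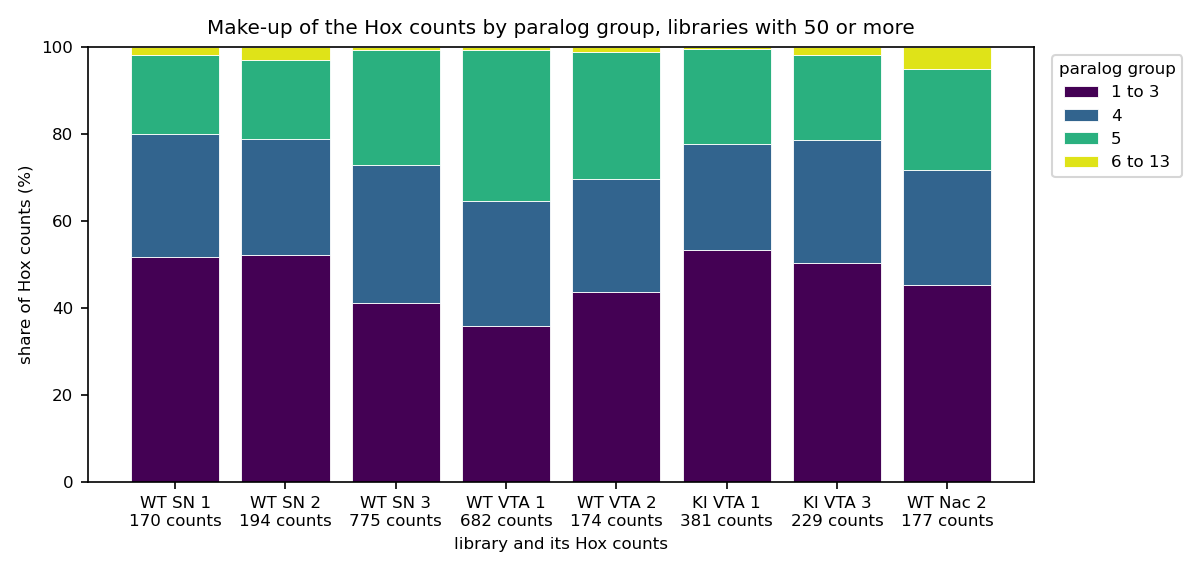
Share of the Hox counts of a library, in percent, taken by paralog groups 1 to 3, 4, 5 and 6 to 13, as stacked bars for the 8 libraries with 50 or more Hox counts. The group 5 segment is largest in WT VTA 1, at 34.6%, where that of groups 1 to 3 is smallest, at 35.9%.

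Hoxd1 did not scale with groups 2 to 5 between libraries of a group. WT SN 3 had 4.53 times (3.96 to 5.19) the level of groups 2 to 5 in WT SN 1 and 2, while Hoxd1 was at 0.857, 0.462 and 0.383 CPM in WT SN 1 to 3, lowest in WT SN 3. In KI VTA 1 to 3 it was at 0.389, 0.546 and 0.313 CPM, highest in KI VTA 2, the library of that group with the lowest Hox sum. KI Nac 1 had 12 counts of Hoxd1, 0.734 CPM, within the range of WT SN, and 7 counts of groups 2 to 5. Against pooled WT SN its level of groups 2 to 5 was lower by a ratio of 46.5 (22.5 to 116).

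In WT, SN and VTA were each set against the mean of HP, PFc, Nac and STR, called forebrain here, in 1 fit of the 18 WT libraries with edgeR's quasi-likelihood test and Benjamini-Hochberg adjustment over all 15094 genes tested. Both contrasts share the forebrain libraries, so they are given side by side. Of the 25 members 9 passed the filter on low counts, Hoxa2, Hoxa3, Hoxa4, Hoxa5, Hoxb2, Hoxb3, Hoxb4, Hoxb5 and Hoxc4; they passed through the libraries in which they are high and so had to differ, and the other 16 were not tested. In SN 9 of the 9 were called higher at an adjusted p under 0.05, where 10.4% of all genes tested were, and in VTA 9 of the 9, where 11% of all genes were. The median log2 fold change of the 9 was 6.44 in SN and 6.00 in VTA, beside -0.0048 and 0.015 over all genes. Since forebrain levels were near 0, these fitted values depend on the prior count.

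Hoxb3 had the largest of these changes in SN, a log2 fold change of 7.53 ± 1.54 (SE, edgeR adjusted p = 0.0127), and 7.09 ± 1.59 in VTA (0.0180). Hoxb5 had the largest in VTA, 7.20 ± 1.71 (edgeR adjusted p = 0.0215), and 6.95 ± 1.74 in SN (0.0251). Hoxb4 had the smallest, 4.78 ± 0.94 in SN (edgeR adjusted p = 0.00470) and 4.61 ± 0.96 in VTA (0.00598). As pooled counts, Hoxb3 had 206 in WT SN and 0 in WT HP, PFc and STR, at least 211.5-fold higher against a floor of 3 counts over the 9 libraries, and Hoxc4 161 and 0, at least 165.3-fold higher. The number of calls moved with the libraries fitted, for the members and for all genes. Without WT SN 3 alone, 3 of 10 members were called in SN, where 6.21% of all genes were higher, and without WT VTA 1 alone 0 of 11 in VTA, where 3.78% were. Leaving out the 6 WT libraries numbered 1 gave 0 of 9 calls in SN, where 0.119% of genes were higher, and 0 of 9 in VTA, where 1.02% were. Without the 6 numbered 3, 1 of 10 was called in SN (4.18% of genes), and without the 6 numbered 2, 1 of 12 in VTA (3.59%).

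**Figure D4:**
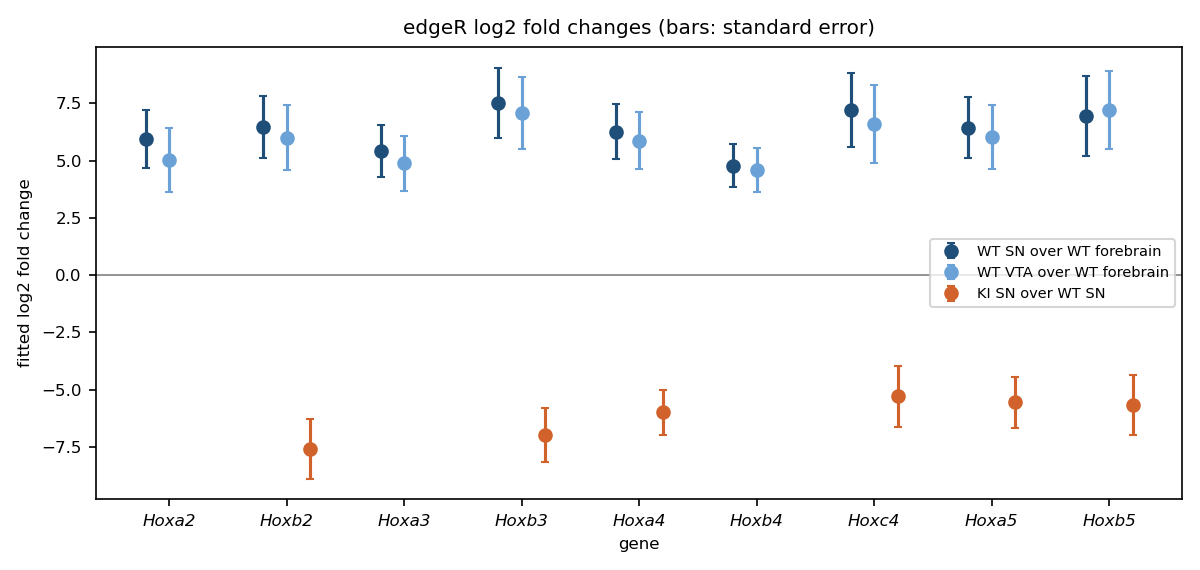
Fitted log2 fold changes with their standard errors for the 9 Hox genes tested in WT: WT SN over WT forebrain (dark blue), WT VTA over WT forebrain (light blue) and, for the 6 genes tested there, KI SN over WT SN (orange). The WT contrasts share their forebrain libraries; all 6 KI SN values lie below 0, a direction fixed by the filter on low counts, and none passed the adjusted threshold in edgeR.

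Without the doubted libraries, here WT Nac 2 and WT VTA 3, 13 members passed the filter, the 9 above and 4 more, among them Hoxc5, Hoxd1 and Hoxd3. The caveat on the filter holds for the added members too. In SN 13 of 13 were then called higher, where 20.3% of all genes were, and in VTA 12 of 13, where 23.4% were. The exception in VTA was Hoxd1 (log2 fold change 0.81, edgeR adjusted p = 0.377). The F test over the 6 WT regions called 7 of 9 members, where 48% of all genes passed; Hoxc4 (edgeR adjusted p = 0.0507) and Hoxb5 (0.0562) did not. It called 13 of 13 without the doubted libraries, where 70% of all genes passed, 12 of 13 without WT Nac 2 alone (55.3%), 13 of 13 without WT VTA 3 alone (61.2%) and 3 of 10 without WT SN 3 alone (46.4%). Without the WT libraries numbered 1 it called 0 of 9 (14.2% of all genes), without those numbered 2, 0 of 12 (25.3%), and without those numbered 3, 4 of 10 (39%). WT SN and WT VTA were not told apart: edgeR called 0 of the 9 members and 0% of all genes, although 503 genes and 0 members had an unadjusted p under 0.05. By DESeq2, 9 genes and 0 members were called. The largest difference between them in this fit was 0.91 ± 1.14 on the log2 scale, for Hoxa2.

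In KI the same contrasts were fitted, and KI SN against KI VTA was not tested. No member passed the filter in the fit of the 18 KI libraries. With no filter on low counts, in VTA 13 of 22 members with a count were called higher than forebrain, where 6.33% of genes were, and in SN 0 of 22 were called, where 0% of genes were, with 495 genes and 1 member at an unadjusted p under 0.05. The SN count is that of all genes and says nothing about the members. DESeq2 called 8 of 12 in VTA, where 10% of all genes were higher, and none in SN. The doubted libraries here are KI HP 2, KI SN 1, KI SN 2, KI Nac 1, KI Nac 2 and KI STR 3. Without them 11 members were tested, and KI SN 3 and KI Nac 3 were alone in their groups, assumed to vary like the others. Log2 fold changes of the 11 against forebrain ran from 5.09 to 7.97 in VTA and from -1.03 to 4.88 in SN. The 11 passed the filter through the KI VTA libraries, where they are high, so the filter fixed the direction in VTA. Hoxb3 had a log2 fold change of 7.97 ± 1.05 (SE) in VTA in that fit. With the doubted libraries kept and the filter applied, 9 of 9 members were called without KI VTA 2, where 1.24% of genes were higher, and 1 of 1 without KI VTA 1 (0.432%). In these fits and the next 3 the members tested also passed the filter through KI VTA libraries, which fixed their direction. Without the KI libraries numbered 1, 1 of 1 was called (13.4% of genes), without those numbered 2, 7 of 9 (0.503%), and without those numbered 3, 0 of 1 (0%). KI VTA 2 had the lowest Hox level of its group. Its ratio to KI VTA 1 was 14.5 (9.73 to 22.5) in groups 2 to 5, with KI VTA 1 higher. The cerebellar list of 14 genes summed to 1199 CPM in KI VTA 2, against 237 and 644 CPM in KI VTA 1 and 3. The same list summed to 915 to 1030 CPM in WT PFc and to at most 1212 CPM in KI Nac, so its sum does not mark cerebellum. The part of other tissue in the Hox difference was not tested.

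Between genotypes the ratio of pooled Hox counts was largest in SN. Pooled over 3 libraries each, WT SN had 1139 Hox counts and KI SN 23, a ratio of 44.3 (29.4 to 70.2), and for groups 2 to 5 the counts were 1057 and 14, a ratio of 67.6 (40.1 to 124). Without WT SN 3 the ratios were 21.6 (14.2 to 34.5) and 30.5 (17.9 to 56.5). Of the 18 members with a count in SN, 15 had all 3 KI libraries below all 3 WT libraries, which 15.5% of all genes with a count did; Hoxb8, Hoxc6 and Hoxd9 did not. Against a floor of 3 counts over the group, Hoxb2 was at least 23.6-fold lower in KI SN, Hoxa3 at least 16.4-fold, Hoxc5 at least 14-fold and Hoxd3 at least 12.2-fold. Hoxb3 had 206 counts against 1, a ratio of 184 (32.7 to 7316).

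This difference did not pass edgeR's adjusted test. The 6 members that passed the filter had log2 fold changes, KI over WT, of -7.59 to -5.30, among them Hoxb2 at -7.59 ± 1.30 and Hoxb3 at -6.99 ± 1.16 (SE), with adjusted p from 0.122 to 0.139. They passed the filter through the WT SN libraries, where they are high, so the filter fixed this direction. edgeR called 0 of the 6 and 0% of all genes, although all 6 members and 2531 of 14418 genes had an unadjusted p under 0.05. DESeq2 called 11 of 14 members lower, where 2.79% of genes were called lower; Hoxd1 (DESeq2 adjusted p = 0.0510) and Hoxd4 (0.138) were among the 3 not called. The authors' deposited table called 11 of the 18 members with a q-value in this comparison, led by Hoxb3 at a log2 fold change of -7.29. Those values come from the same libraries. The share of all genes called there was not computed here, so the count has no background beside it.

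Markers of tissue moved with this difference. The list of 12 dopamine neuron genes summed to 1191 to 3828 CPM in WT SN and to 97.1, 97.0 and 1760 CPM in KI SN 1 to 3, the 22 hindbrain transcription factors to 71.9 to 92.9 and 21.2 to 40.9 CPM, and the 15 striatal genes to 455 to 559 CPM in WT SN and to 386, 7771 and 1164 CPM in KI SN 1 to 3. KI SN 1 thus had no more striatal signal than WT SN, but its 10 choroid plexus genes summed to 3095 CPM, its 10 hippocampal genes to 444 CPM and its 10 cortical genes to 1912 CPM, against at most 69.1, 85.3 and 1279 CPM in WT SN. Its 8 oligodendrocyte genes summed to 2608 CPM, against 15930 to 19010 CPM in WT SN. The 13 hindbrain transmitter genes summed to 82.2 to 293 CPM in WT SN and to 5.88 to 54.4 CPM in KI SN. Of the 12 tested by edgeR, 5 had a positive log2 fold change, KI over WT, and 0 were called higher or lower. Among them Slc6a5, the transporter gene that marks glycine-releasing neurons of the hindbrain and spinal cord, was singled out. It was at 36.3, 62.2 and 147 CPM in WT SN and 0.264, 0.0597 and 0.897 CPM in KI SN. Evx1, a hindbrain transcription factor, was at 0 in all KI SN libraries. KI SN 3 had dopamine markers in the WT range, with Slc6a3 at 421 CPM, and still had 19 Hox counts. Against it alone WT SN was higher by a ratio of 17.6 (11.2 to 29.4), and without WT SN 3 as well by 8.59 (5.42 to 14.4). With KI SN 3 as the only KI library edgeR called 0 of 13 members (adjusted p from 0.377 to 0.648, 7 at an unadjusted p under 0.05, the lone library assumed to vary like WT). The part of dissected tissue in the difference was not tested, and region content and genotype cannot be told apart in KI SN 1 and KI SN 2.

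In VTA the genotypes overlapped. WT VTA over KI VTA was 1.21 (1.09 to 1.34) in pooled counts, and 1.79 (1.61 to 1.98) without WT VTA 3. WT VTA 1 held 682 of the 864 WT counts, and without it the ratio turned to 0.382 (0.322 to 0.451). edgeR called 0 of 8 members and 0% of all genes, although 1879 genes and 0 members had an unadjusted p under 0.05. By DESeq2, 185 genes and 0 of 12 members were called. The log2 fold changes of the 8 ran from -0.77 to 0.73, with Hoxb5 at -0.77 ± 1.39 and Hoxb3 at 0.04 ± 1.26 (SE). Without WT VTA 3 those of 11 members ran from -1.36 to 2.04, and 0 of 11 were called, where 5.72% of all genes were. Without WT VTA 1 those of 9 members ran from 0.59 to 2.76, and 0 of 9 were called, where 0% of all genes were. Whether the genotype difference in SN differs from that in VTA was tested in a fit of all 36 libraries. For 12 members tested the difference of differences was -7.77 to -3.46 on the log2 scale, adjusted p from 0.111 to 0.290, so edgeR called none, and 0% of all genes. An unadjusted p under 0.05 was found for 10 members and 3153 genes. Without the doubted libraries 0 of 13 members were called, with adjusted p from 0.671 to 0.963 in edgeR and 2 at an unadjusted p under 0.05. By DESeq2, 569 genes and 0 of 7 members were called. In HP, PFc, Nac and STR no member passed the filter. With no filter edgeR called 0 of 6, 0 of 12, 0 of 17 and 0 of 12 members, and 0% of all genes in each region. There 0 members had an unadjusted p under 0.05. DESeq2 called 0 of 17 members in Nac and 0 of 1 in STR, and had no member to test in HP and PFc. These counts say nothing about the members.

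Genes of any kind were ranked by likeness to the summed Hox level, which cannot by itself check the label of hindbrain marks. Over 14125 genes whose mean log2(CPM + 0.5) was 0 or more, the level of Slc6a5 followed the summed Hox level most closely over the 36 libraries, with a Pearson r of 0.954 on the log2(CPM + 0.5) scale. Next came Slc6a4, the serotonin transporter, at 0.942, Mab21l2 at 0.939, Vwa7 at 0.938, Barhl1, a transcription factor, at 0.932, Tph2, which makes serotonin in neurons, at 0.928, Mmel1 at 0.916, Pax7 at 0.916, Esyt1 at 0.915 and Gata3 at 0.913. Of these 10, Pax7 is on the list of midbrain transcription factors used here, Gata3 on that and the hindbrain list, and Barhl1 on the cerebellar list. En1, a transcription factor of the midbrain and front hindbrain, stood at rank 19 with 0.887 and Slc6a3 at rank 58 with 0.860. These are descriptions: the points share their depth and the split between libraries with and without midbrain tissue, and by Spearman rank correlation 0 of these 10 were among the 10 most alike. Without the doubted libraries 7 of the 10 were, with r from 0.912 to 0.957.

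Slc6a5 and Slc6a3 parted in 3 libraries. In 11 libraries Slc6a3 was at 192 CPM or more, and the Hox sum there ran from 1.22 to 42.4 CPM; in the other 25 it was at most 0.956 CPM. At the low end of the 11, KI SN 3 had 1.22 CPM of Hox with Slc6a5 at 0.897 and Slc6a3 at 421 CPM. KI Nac 1 had 1.59 CPM of Hox with Slc6a5 at 0.734 and Slc6a3 at 965 CPM, and KI VTA 2 had 2.55, 7.21 and 509 CPM in the same order. The other 8 had Hox sums of 9.72 CPM or more and Slc6a5 at 13.8 CPM or more. WT VTA 1 had the lowest Slc6a5 of these 8 with the second highest Hox sum.

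**Figure D5:**
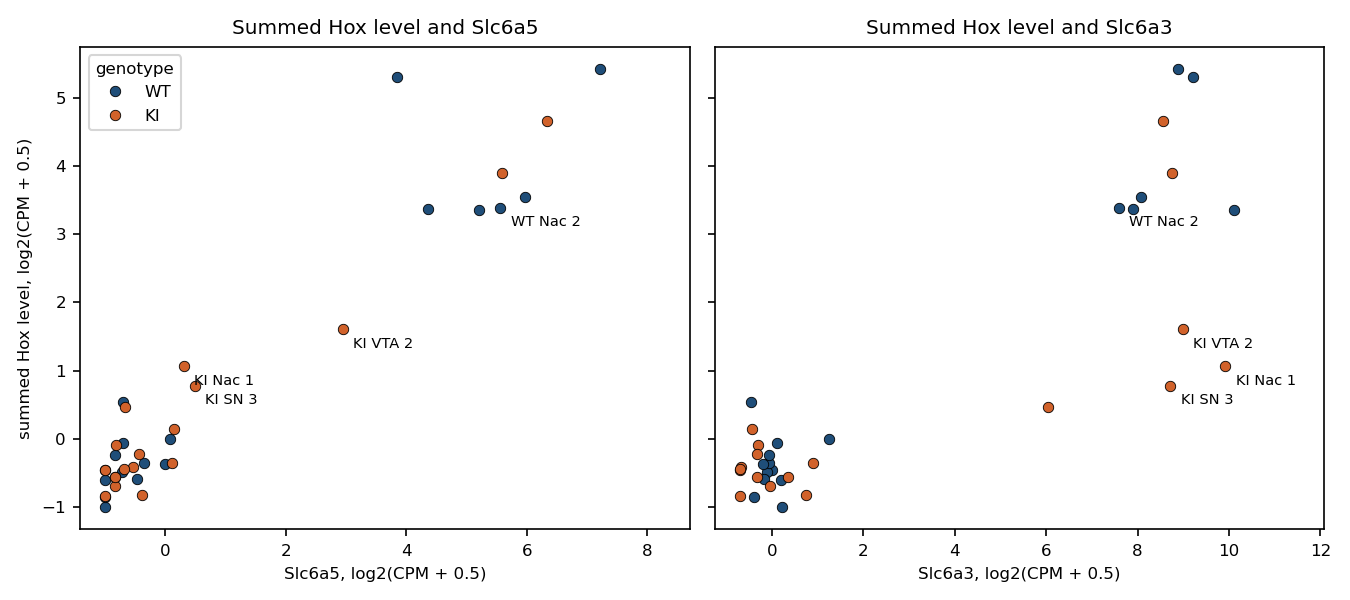
Summed Hox level against Slc6a5 (left) and against Slc6a3 (right) in the 36 libraries, all as log2(CPM + 0.5), with WT in blue and KI in orange. KI SN 3, KI Nac 1 and KI VTA 2 have Slc6a3 as high as the libraries rich in Hox counts but lower Slc6a5 and Hox levels.

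By the medians of their lists, genes that work with Hox proteins or regulate them moved less than the 9 members tested in WT SN and VTA against forebrain. Those 9 passed the filter through libraries where they are high, so the filter had a part in this contrast. The lists of genes that work with or regulate Hox proteins were chosen with earlier results of these data known. Of 9 TALE cofactors, which bind DNA beside Hox proteins, Meis1 (log2 fold change 1.78 ± 0.25 in SN, edgeR adjusted p = 0.00083, and 1.53 ± 0.25 in VTA, 0.00202) and Pbx3 (1.62 ± 0.20, 0.00039, and 1.71 ± 0.20, 0.00029) were higher in both; the other 7 did not pass the test. The median of the 9 was -0.21 in SN, beside -0.0048 over all genes. Of all genes 10.4% were called higher in SN and 11% in VTA. In SN, of 16 retinoic acid genes tested, 4 were higher, led by Aldh1a1 (2.95 ± 0.47, edgeR adjusted p = 0.00174), a synthesis enzyme that dopamine neurons express too. Lower were 2, Stra6 (-1.91 ± 0.44, edgeR adjusted p = 0.0110) and Rdh10 (-0.64 ± 0.19, 0.0323). In VTA, 2 of the 16 were higher and 1 was lower, where 8.32% of all genes were lower. A list of 23 genes was mostly of the Polycomb and trithorax groups, which keep Hox clusters silent or active. Of these 23, 2 were lower in SN, Rnf2 (-0.69 ± 0.19, edgeR adjusted p = 0.0234) and Ctcf (-0.35 ± 0.11, 0.0355), and none passed in VTA. Ctcf was listed with them but is of neither group. As 10.5% of all genes were lower in SN, 2 of 23 is near the background and no result about this list.

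Of the genes beside the clusters, Evx1 and Evx2 had the largest changes in WT SN. These homeobox genes flank HoxA and HoxD and are known from hindbrain and spinal interneurons. Evx1 was at 2.46, 3.35 and 3.01 CPM in WT SN, 0.571, 1.13 and 0 CPM in WT VTA and 3.78 CPM in WT Nac 2, and was listed at 0 in the 18 libraries of HP, PFc and STR. Its log2 fold change in WT SN against forebrain was 6.79 ± 1.48 (edgeR adjusted p = 0.0162) and that of Evx2 6.24 ± 1.6 (0.0272). In WT VTA neither passed (edgeR adjusted p = 0.119 and 0.136). Evx1 passed the filter on low counts through libraries where it is high, so its direction was fixed. The same caveat is placed on Evx2, with a change of like size. Of the 13 flanking genes tested, Skap2 and Hibadh were also called higher in SN, by 0.50 ± 0.15 (edgeR adjusted p = 0.0321) and 0.48 ± 0.07 (0.00172). With Evx1 and Evx2, which are under that caveat, this made 4 of 13, where 10.4% of all genes were higher. The median over the 13 was 0.04. In WT VTA, 1 of the 13 was called higher and 1 lower. Mtx2, at the other end of HoxD, ran from 40.1 to 42.4 CPM in WT SN and 26.9 to 37.0 CPM in KI SN.

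Other lists show what else the Hox-bearing libraries held. In WT SN against forebrain, 10 of 16 hindbrain transcription factors tested and 8 of 12 hindbrain transmitter genes were called higher and none lower, with median log2 fold changes of 4.13 and 2.88, where 10.4% of all genes were higher. In WT VTA 9 of 16 and 5 of 12 were, with medians of 3.94 and 1.69, where 11% of all genes were. List genes near 0 in HP, PFc and STR, such as Slc6a5, passed the filter through libraries where they are high, which fixed their direction. The transmitter genes included Slc6a5 (7.66 ± 1.13, edgeR adjusted p = 0.00120), Slc6a2, the noradrenaline transporter (5.89 ± 0.92, 0.00204), and Slc6a4 (5.43 ± 1.36, 0.0152). Midbrain transcription factors gave 13 of 15 and dopamine genes 11 of 12, led by Slc6a3 (8.27 ± 1.23, edgeR adjusted p = 0.00122); in WT VTA the same counts were found. Of 8 oligodendrocyte genes all 8 were higher in both, with medians of 1.07 and 0.97, and of 10 choroid plexus genes 7 were lower in SN and 1 in VTA. In WT STR the choroid plexus gene Ttr reached 10990 to 16430 CPM, while the Hox sum there was at most 0.956 CPM.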

How the data were processed

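RNA from 36 mouse brain libraries was sequenced after preparation with a SMARTER mRNA kit, per the labels' protocols. The authors deposited a gene table with an estimated count and a TPM value per library, and log2 fold changes with q-values of their own comparisons, per the file headers. The build, GRCm38.p6, comes from the submitters' processing notes; no source used here names the counting tool or says whether it used strand. In all, 180 columns of values per sample were not used. Of all gene values 9.88% were not whole, and counts were rounded before testing. Tests used edgeR 4.0.16 (filterByExpr, TMM, quasi-likelihood) in R 4.3.3 with Benjamini-Hochberg adjustment over all genes tested and a threshold of 0.05 and DESeq2 1.42.0 as an alternative. A standard error beside an edgeR fold change is the fold change over the root of its F. The tests were tested on simulated data. Levels, intervals and figures used Python 3.11.15, pandas 2.3.3, SciPy 1.17.1 and matplotlib 3.10.9. CPM is the count over the library's total (15145623 to 18863508 counts), and 0.5 was added before a log2 level. Intervals are exact at 95% and, like the floor of 3 counts, cover counting error only.

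The members were taken by symbol, with no measured value used. The Hox family as a subject, the gene lists and the doubted libraries were chosen with earlier results of these data known. Values are given in full for the 8 members with the largest mean CPM, and outside the members for the 10 genes most like the Hox sum and the list members called; Hoxd1, Hoxc5, Hoxd13, Mtx2 and the region markers were singled out after their values were seen. The main fits did not pair libraries by replicate number, and whether the numbers stand for a pairing is not known. Alternatives were no filter, DESeq2, a replicate block, and leaving out doubted libraries, each replicate number or single libraries. Some genes and sequences are not reported here. The 14 other mouse Hox genes were not analysed here.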

Additional observations from a re-analysis of the deposited data

How the results depend on the processing

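Among the 8 most abundant members, no log2 fold change that was called changed direction under the alternatives run, but uncalled ones did in WT SN against VTA and in KI against WT in VTA. Without the doubted libraries, WT SN against VTA turned to -0.16 for Hoxa4, -0.10 for Hoxb2, -0.13 for Hoxb3, -0.16 for Hoxa5 and -0.36 for Hoxb4, and KI against WT in VTA to -0.39 for Hoxb2 and -0.55 for Hoxb3. Leaving out libraries, WT SN against VTA ran from -2.33 to 2.34 for Hoxb5, -0.88 to 1.65 for Hoxa4, -0.86 to 2.52 for Hoxb2, -1.28 to 2.50 for Hoxb3, -1.12 to 1.79 for Hoxa5, -0.54 to 2.00 for Hoxa2, -1.51 to 2.20 for Hoxb4 and -1.54 to 3.52 for Hoxc4. KI against WT in VTA ran from -1.66 to 1.40 for Hoxb5, -0.80 to 0.79 for Hoxa4, -1.34 to 0.59 for Hoxa5, -1.08 to 1.85 for Hoxb4, -1.23 to 1.82 for Hoxc4, -0.39 to 1.92 for Hoxb2, -0.70 to 1.74 for Hoxb3 and -0.62 to 1.49 for Hoxa2. The cause was not tested.

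Without a filter on low counts more members were tested. In WT SN against forebrain 15 of 23 were called (15.6% of all genes called) and in WT VTA 12 of 23 (14.2%). Over the WT regions 13 of 23 were called (38.6%), and in KI VTA against forebrain 13 of 22 (14.4%). DESeq2 called 7 of 14 members tested in WT SN (24.8% of all genes called), 4 of 13 in WT VTA (22.5%), 6 of 16 over the WT regions (49.7%), 8 of 12 in KI VTA (24.4%) and 11 of 14 in SN between genotypes (6.26%); the cause was not tested. Without the doubted libraries 13 of 13 members were called over the WT regions (70% of all genes). Leaving out each replicate number or single library gave 0 to 13 calls in WT SN (0.119% to 31.2% of all genes) and 0 to 12 in WT VTA (1.67% to 38.7%). Over the WT regions it gave 0 to 13 (14.2% to 61.2%), and in KI VTA 0 to 9 (0% to 26.4%). The single libraries were chosen after seeing the data. By Spearman correlation 0 of the 10 most alike genes were shared.

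Whether the replicate numbers pair the libraries is not given by the labels. Deviations of same-numbered libraries from their group means correlated from -0.49 to 0.496 between genotypes of a region (18 pairs, 2 over 0.1). Across WT regions they correlated from -0.491 to 0.629 (45 pairs, 14 over 0.1), and across KI regions from -0.557 to 0.537 (45 pairs, 9 over 0.1). Libraries with different numbers were not compared, so these values cannot decide the question. With the replicate block, WT SN against VTA turned to 0.16 for Hoxb5 and KI against WT in VTA to 0.17 for Hoxb4. That fit called 8 of 9 members in WT SN (23.8% of all genes), 6 of 9 in WT VTA (21.7%) and 3 of 9 over the WT regions (49.9%). In the other comparisons with members tested it called 0 of them and at most 0.0902% of all genes.

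Most members had few counts, so differences of Hoxd1 and of groups 6 to 13 between single libraries were often not detectable at this depth.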
